A study of Mus musculus with 33 samples.

Results

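Desmosomes are the spot-like junctions that hold epithelial cells together. The genes described here encode 10 of their parts, namely the desmogleins Dsg1a, Dsg2 and Dsg3, the desmocollins Dsc2 and Dsc3, the plaque proteins Dsp (desmoplakin), Pkp1, Pkp2 and Pkp3 (plakophilins), and the tetraspan membrane protein Perp. They were taken by symbol, and 10 of 10 had a row in each of 4 tables of mouse RNA-seq values. Those tables hold 22867 to 26244 genes each and 30184 symbols between them.

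Desmogleins and desmocollins are cadherins whose outer parts bind those of the neighbouring cell and whose tails hold plakoglobin (gene Jup) and the plakophilins, while desmoplakin ties this plaque to keratin filaments. As background, Dsg2 and Dsc2 occur wherever there are desmosomes, simple epithelia included. Dsg3 and Dsc3 belong to the basal layers of stratified epithelia and, in the mammary gland, mainly to the basal or myoepithelial cells, and Dsg1 belongs to the upper epidermis. Pkp1 is a plakophilin of stratified epithelia, Pkp2 one of simple epithelia and heart muscle, and Pkp3 is found in most desmosomes.

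The study measured RNA in 33 mouse mammary samples and asked what the transcriptional repressor TRPS1 does there. Cells of the mouse mammary epithelial line HC11 received the histone deacetylase inhibitor trichostatin A (TSA, 300 nM for 24 h) or DMSO, in 3 libraries each. In a further set, HC11 cells held the guide sgTrps1 #1 or the scrambled sgScr #1, so each arm is 1 guide in 2 libraries. Primary mammary organoids in Matrigel, all transduced with an adenovirus expressing Cre, were taken at day 14 or 28. Their genotypes were Cdh1F/F;Trps1+/+ (called Trps1+/+ organoids here), Cdh1F/F;Trps1F/F (double-floxed) and Cdh1+/F;Trps1F/F, with 2 libraries per genotype and day. All 3 genotypes thus carry at least 1 floxed allele of Cdh1, the gene of E-cadherin. Tumors came from mice in which the Wap promoter, active in mammary epithelium, drives Cre: 8 tumors of 6 WAP-cre;Cdh1F/F;Trps1F/F mice and 3 tumors of 3 WAP-cre;Cdh1F/F;Trps1+/+ mice. The labels split the 8 tumors into subgroup_one (4 tumors, 3 mice), subgroup_two (2 tumors, 2 mice) and subgroup_three (2 tumors, 2 mice), without saying how. No ages are given in the labels used here, and nothing in them says that the libraries of a cell-line or organoid group are separate cultures, so the p-values there reflect a spread that may be purely technical.

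Levels are log2(normalized count + 1) as the authors deposited them, with counts normalized separately for each table, and groups are therefore compared within a table only. Libraries held 17809076 to 25614664 reads in the TSA table, 21374525 to 38773073 in the guide table, 14858175 to 30341897 in the organoid table and 18320414 to 24225027 for tumors. A difference is between group means on that log2 scale, where folds of low genes are understated, and a gene is called at an adjusted p under 0.05 by limma over all genes kept. The targeted gene was first read as a check of the labels. Trps1 was at 9.45 to 11.39 in organoids with Trps1F/F and at 13.51 to 13.96 in those with Trps1+/+. In the guide table Trps1 was at 13.79 and 13.89 with sgScr and at 13.85 and 13.91 with sgTrps1 (adjusted p = 0.676), so the RNA level does not check the guide, whose cut need not lower the transcript. Cdh1 was at 13.08 to 13.94 in organoids with Cdh1F/F and at 13.04 to 13.52 in those with Cdh1+/F, so reads over the whole gene do not check the Cdh1 alleles either.

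TRPS1 carries a GATA-type zinc finger, so the 250 bases before the start of the plaque genes were read for the letters GATA on either strand (GATA or TATC). RefSeq's promoter table (GRCm38.p6) held 1 of the 10 genes, Dsp, and also the partner gene Jup. Both are printed 5′ to 3′ on the gene's strand because both plaque genes fell in Cdh1+/F;Trps1F/F organoids, with any match in capitals.
Dsp, chr13:38151044-38151293, plus strand: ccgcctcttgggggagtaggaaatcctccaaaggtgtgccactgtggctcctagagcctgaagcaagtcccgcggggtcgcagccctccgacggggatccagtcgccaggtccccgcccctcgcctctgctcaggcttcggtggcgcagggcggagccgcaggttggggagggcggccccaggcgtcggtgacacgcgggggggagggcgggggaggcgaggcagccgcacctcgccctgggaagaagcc
Jup, chr11:100397791-100398040, minus strand: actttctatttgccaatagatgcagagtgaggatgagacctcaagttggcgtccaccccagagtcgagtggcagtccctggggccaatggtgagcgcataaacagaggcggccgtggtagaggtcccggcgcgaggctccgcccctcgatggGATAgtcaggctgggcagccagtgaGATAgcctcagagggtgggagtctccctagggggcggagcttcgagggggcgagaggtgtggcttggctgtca
The Dsp window held no match and was 72.4% G or C. The Jup window held 2, at 98 and 73 bases before the start, and was 62.0% G or C. Of all 32851 windows of this length in the table, 53.6% held at least 1 match, and a match describes letters, not a bound site.

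The 5 cadherin members lie on chromosome 18 (GRCm38), within a cluster of 9 desmosomal cadherin genes from 19960930 to 20604521, with Dsc1, Dsg1b, Dsg1c and Dsg4 among them. Dsg1a lies there from 20310811 to 20343350 on the plus strand and has close copies in Dsg1b and Dsg1c. Of its 50-base windows, 35.0% also occur in those copies, so the reads counted for Dsg1a are uncertain. The other members lie apart, with Dsp on chromosome 13 (38151294 to 38198577, plus strand), Pkp1 on chromosome 1 (135871395 to 135919207, minus), Pkp2 on chromosome 16 (16213318 to 16272712, plus), Pkp3 on chromosome 7 (141078218 to 141090510, plus) and Perp on chromosome 10 (18845020 to 18857073, plus). Antisense genes overlap 3.99% of the exon bases of Dsg2 and 5.17% of those of Dsp, and whether counting used the strand was not stated in the labels read here.

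In HC11 cells treated with TSA, 8 of the 9 members that could be tested fell and Pkp2 rose. Dsg3, the basal desmoglein, fell the furthest, and the plakophilin of simple epithelia moved against the rest. Dsg3 was at 12.89, 12.85 and 12.80 with DMSO and at 9.35, 9.38 and 9.30 with TSA. All 3 treated libraries lay far below all 3 controls, and Dsg3 fell by 3.50 (SE 0.0403, 11.3-fold, adjusted p = 4.72e-14). Pkp2 was at 7.88, 7.59 and 7.65 with DMSO and at 10.44, 10.38 and 10.44 with TSA. The groups did not overlap here either, and Pkp2 rose by 2.71 (SE 0.0771, 6.55-fold, adjusted p = 1.94e-11).

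The other cadherins of HC11 fell by different amounts. Dsg2, the desmoglein of all desmosomes, was at 11.02, 10.97 and 10.87 with DMSO and at 10.19, 10.07 and 10.11 with TSA, a fall smaller than that of Dsg3 (-0.83, SE 0.0508, adjusted p = 1.62e-08). Its partner Dsc2 was at 8.64, 8.56 and 8.56 against 7.12, 7.19 and 7.30. Neither gene's groups overlapped, and Dsc2 fell by 1.38 (SE 0.0859, adjusted p = 1.78e-08). Dsg1a was low throughout, with 46 to 72 reads per DMSO library and 6 to 13 per TSA library. It passed the filter on low values through the DMSO libraries alone, so its call (-2.77, SE 0.249, adjusted p = 5.62e-07) is no separate evidence. Dsc3 had 0 or 1 read in each of the 6 libraries and was not tested.

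Among the plaque genes, Dsp was at 14.16, 14.19 and 14.25 with DMSO and at 13.19, 13.18 and 13.21 with TSA. Desmoplakin RNA thus fell in every treated library, by 1.01 (SE 0.0377, 2.01-fold, adjusted p = 1.93e-10). Pkp1 was at 13.55 in each of the 3 DMSO libraries and at 11.78, 11.81 and 11.84 with TSA (-1.74, SE 0.0336, 3.33-fold, adjusted p = 1.11e-12). Pkp3 was at 10.95, 11.04 and 11.20 against 9.35, 9.44 and 9.38 (-1.67, SE 0.0614, adjusted p = 1.6e-10). Both plakophilins of stratified or most desmosomes thus fell while Pkp2 rose. Perp, a target gene of p63 and p53, moved least among the tested genes, from 13.28, 13.29 and 13.23 to 12.88, 12.87 and 12.97 (-0.36, SE 0.039, adjusted p = 2.9e-06).

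TSA changed most of the genes of HC11, and the counts are read against that. Of 13044 genes, 85.2% were called, 43.6% higher and 41.6% lower, so being called says little about a member. With Dsg1a left aside, 7 of 8 were lower, beside 41.6%, and their median difference was -1.19, beside 0.02 over all genes. The summed level of 10 epithelial marker genes was 121000 to 132000 normalized counts with DMSO and 52600 to 54500 with TSA. That of 9 basal or myoepithelial markers was 104000 to 120000 and 48000 to 49800, and both lists hold Krt5 and Krt14. The 8 luminal markers summed to 7920 to 8500 with DMSO and to 9090 to 9460 with TSA. Of the 8 epithelial markers tested, 3 rose and 5 fell, and their part in the members' differences was not tested. Every value is an average over the cells of a sample, so fewer cells that make a transcript and less of it per cell cannot be told apart.

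The genes around the members did not move as a block. Of the other desmosome and cornified-envelope linker genes, 6 of 9 were tested, 4 rose and 2 fell. Jup, plakoglobin, was at 13.66, 13.85 and 13.92 with DMSO and at 13.20, 13.22 and 13.23 with TSA (-0.60, adjusted p = 1.16e-06), and Dsg1b fell by 2.57. The envelope linkers Ppl (periplakin) and Evpl (envoplakin) rose by 2.22 and 1.28, corneodesmosin (Cdsn) by 3.66 and Pkp4 by 0.76. Of 8 keratins that desmosomes can anchor, 3 rose and 5 fell, with Krt5 at -3.16 and Krt14 at -1.45, the basal pair, and Krt18 of simple epithelia at 1.84. Of 10 known regulators of desmosome genes or proteins, 4 rose and 4 fell. They include Trp63, the gene of p63, which was at 11.27 to 11.30 with DMSO and at 8.99 to 9.07 with TSA, and Grhl2 (-1.25), while Grhl3 rose by 1.47 and Klf5 by 0.99. Trps1 itself fell by 3.05 with TSA (8.26-fold, adjusted p = 6.84e-14).

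With the Trps1 guide, 7 of the 9 tested members were higher and Dsg2 and Pkp2 were lower. Dsg1a and Perp rose the most. Dsg1a was at 6.94 and 6.70 with sgScr and at 10.05 and 10.01 with sgTrps1. Both sgTrps1 libraries lay well above both controls, by 3.21 (SE 0.0935, 9.27-fold, adjusted p = 5.24e-12). Dsg1a shares 35.0% of its 50-base windows with its close copies, so the size of this rise is uncertain. Perp was at 12.68 and 12.55 against 15.14 and 15.15, or 6522 to 9990 reads against 68586 to 70226. That is a rise of 2.53 (SE 0.0801, 5.79-fold, adjusted p = 1.16e-11) in a gene already among the most abundant members.

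Dsg3 was at 12.93 and 12.84 with sgScr and at 13.79 and 13.83 with sgTrps1 (0.92, SE 0.0711, adjusted p = 8.34e-08). Dsg2 was at 9.81 and 9.85 against 8.81 and 8.74 (-1.05, SE 0.0688, adjusted p = 1.58e-08). So 2 desmogleins rose and Dsg2, the desmoglein of all desmosomes, fell, with no overlap between the groups in any of them. Dsc2 was at 10.09 and 10.05 against 10.53 and 10.66 (0.52, SE 0.0632, adjusted p = 6.44e-06). Dsc3 had 0 to 1 read in the sgScr libraries and 4 to 7 in the sgTrps1 libraries and was not tested. Dsc1, the desmocollin of upper epidermis and no member, was at 3.15 and 3.06 with sgScr and at 5.28 and 5.44 with sgTrps1.

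In the plaque, Pkp1 was at 12.39 and 12.31 with sgScr and at 13.16 and 13.17 with sgTrps1 (0.82, SE 0.0646, adjusted p = 1.07e-07). Pkp2 was at 8.45 and 8.34 against 7.55 and 7.64 (-0.80, SE 0.0939, adjusted p = 4.69e-06). The plakophilin of stratified epithelia thus rose where that of simple epithelia fell. Pkp3 was at 10.99 and 10.89 against 11.34 and 11.26 (0.36, SE 0.061, adjusted p = 0.000139). Dsp was at 14.10 and 14.11 against 14.41 and 14.48 (0.34, SE 0.0847, adjusted p = 0.0028). Both rises were small, and that of Dsp lost its call without sgTrps1 replicate 2 (adjusted p = 0.0949). Jup was at 12.55 and 12.45 against 13.79 and 13.73, a rise of 1.25 (adjusted p = 3.51e-09).

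Of 12562 genes tested with the guides, 67.1% were called, 34.6% higher and 32.4% lower, so 7 of 9 higher stands beside 34.6%. The median difference of the 9 tested members was 0.52 and that of all genes 0.02. Of 7 tested linker genes 5 rose and 1, Cdsn, fell (-2.07), with Ppl at 1.12 and Dsg1b at 1.00. Of 7 keratins 4 rose and 2 fell, with Krt5 at 2.68, Krt6a at 2.30 and Krt14 at 1.32 among those that rose and Krt7, a keratin of simple epithelia, at -2.51. Of 10 regulators 4 rose and 4 fell, with Grhl3 at 3.11 and Grhl1 at 0.62, but Trp63 at -0.64 and Grhl2 at -0.39. Trp63 and Perp, its target gene, thus moved in opposite directions. The summed epithelial markers were 38200 to 41800 with sgScr and 92300 to 92700 with sgTrps1, and the basal or myoepithelial markers 39800 to 46800 and 100000 to 102000. Both lists hold Krt5 and Krt14, and single epithelial markers went both ways. Epcam was at 11.71 and 11.53 with sgScr and at 10.24 and 10.20 with sgTrps1. Cdh1 was at 13.22 and 13.18 against 13.52 and 13.53. The 8 luminal epithelial markers summed to 1480 to 1710 with sgScr and 3200 to 3310 with sgTrps1. Epidermal markers summed to 124 to 139 and 137 to 143, with Krt77, Lor, Flg and Ivl at 0 with sgScr. The part of these markers in the members' differences was not tested.

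Each guide arm rests on 1 guide, and the libraries differ by chromosome. The median difference of the 574 tested genes on chromosome 10, where Perp lies, was 0.42, and 80.3% of them were above 0. On chromosome 16, where Pkp2 lies, it was 0.32 over 363 genes, 72.7% above 0, and Pkp2 went against it. On the remaining autosomes and X the medians ran from -0.16 to 0.09. The part of these chromosome-wide shifts in the difference of Perp was not tested.

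**Figure D1:**
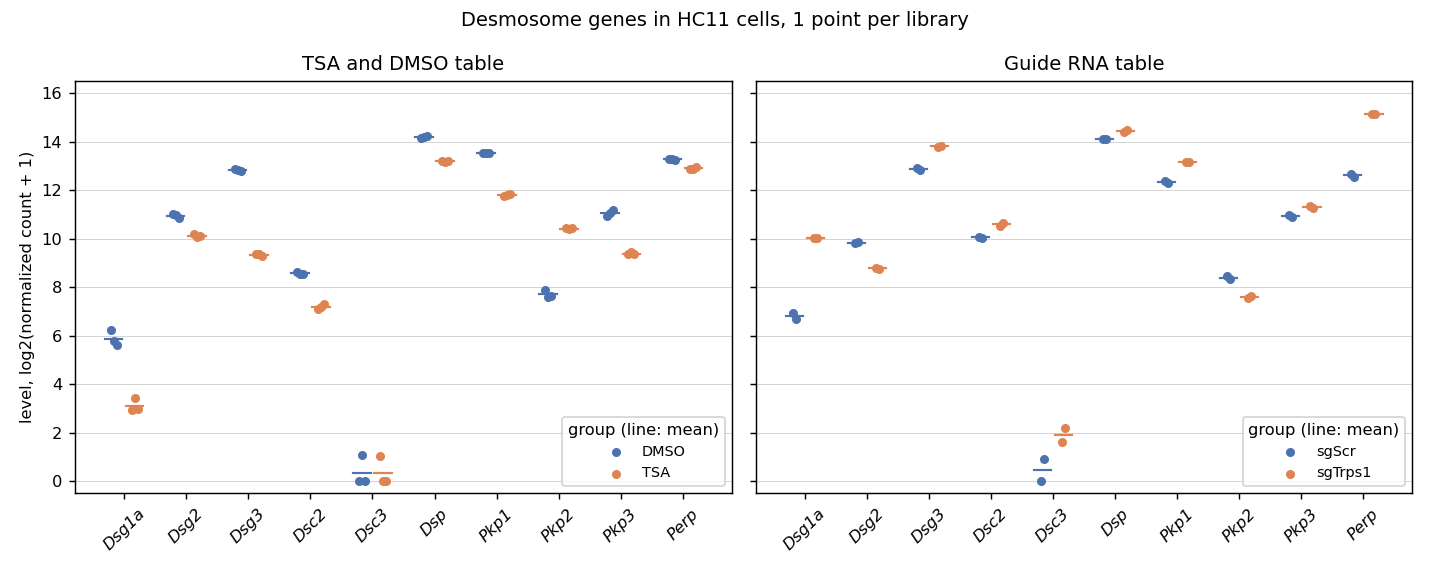
Levels of the 10 genes in HC11 cells, on a log2(normalized count + 1) axis with 1 point per library and a line at each group mean, for TSA against DMSO (left) and sgTrps1 against sgScr (right). Pkp2 is the gene above its DMSO libraries on the left, at 10.38 to 10.44, and Dsg2 and Pkp2 are the genes below their sgScr libraries on the right.

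The 9 genes tested in both HC11 tables were called in both, 8 of them in opposite directions. Dsg2 fell in both, by 0.83 and 1.05. Among 11088 genes tested in both tables, 6503 were called in both, and 46.9% of these went in opposite directions. With Dsg1a left aside it was 7 of 8 members. The tables share no library. Trps1 RNA fell with TSA and was not called with the guide.

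Which desmoglein prevailed also changed with TSA, and the shares of the plakophilins shifted. Per kilobase of exon, Dsg3 made up 80.5 to 81.4% of the 3 desmogleins with DMSO and 39.7 to 41.9% with TSA, while Dsg2 went from 18.0 to 18.6% to 57.3 to 59.9%. The desmoglein of basal cells thus gave way to Dsg2, that of all desmosomes, as the larger share. Pkp2 went from a mean of 1.30% of the 3 plakophilins to 22.1% (range 21.5 to 22.7%). Pkp1 stayed the main plakophilin, at means of 79.1% with DMSO and 61.9% with TSA. With sgTrps1, Dsg1a went from 1.53 to 1.72% of the desmogleins to 7.84 to 8.22%, and Dsg2 from 8.68 to 9.43% to a mean of 2.31%. The close copy Dsg1b is not among these 3 genes. It had 739 and 483 reads with sgScr and 1740 and 1804 with sgTrps1, where Dsg1a had 186 and 112, then 2006 and 1999. The share of Dsg1a is therefore uncertain. Dsg3 stayed the main desmoglein there, at means of 89.3% and 89.7%. Of all 10 genes, Perp had the highest level per kilobase in each HC11 group, and Dsc3 the lowest. In the DMSO libraries the order was Perp, Pkp1, Dsp, Dsg3, Pkp3, Dsg2, Dsc2, Pkp2, Dsg1a and Dsc3, with no overlap between neighbours. With TSA it was Perp, Dsp, Pkp1, Pkp2, Pkp3, Dsg2, Dsg3, Dsc2, Dsg1a and Dsc3. In the sgScr libraries it was Perp, Dsp, Dsg3, Pkp1, Pkp3, Dsc2, Dsg2, Pkp2, Dsg1a and Dsc3, and only Dsg3 and Pkp1 overlapped.

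**Figure D2:**
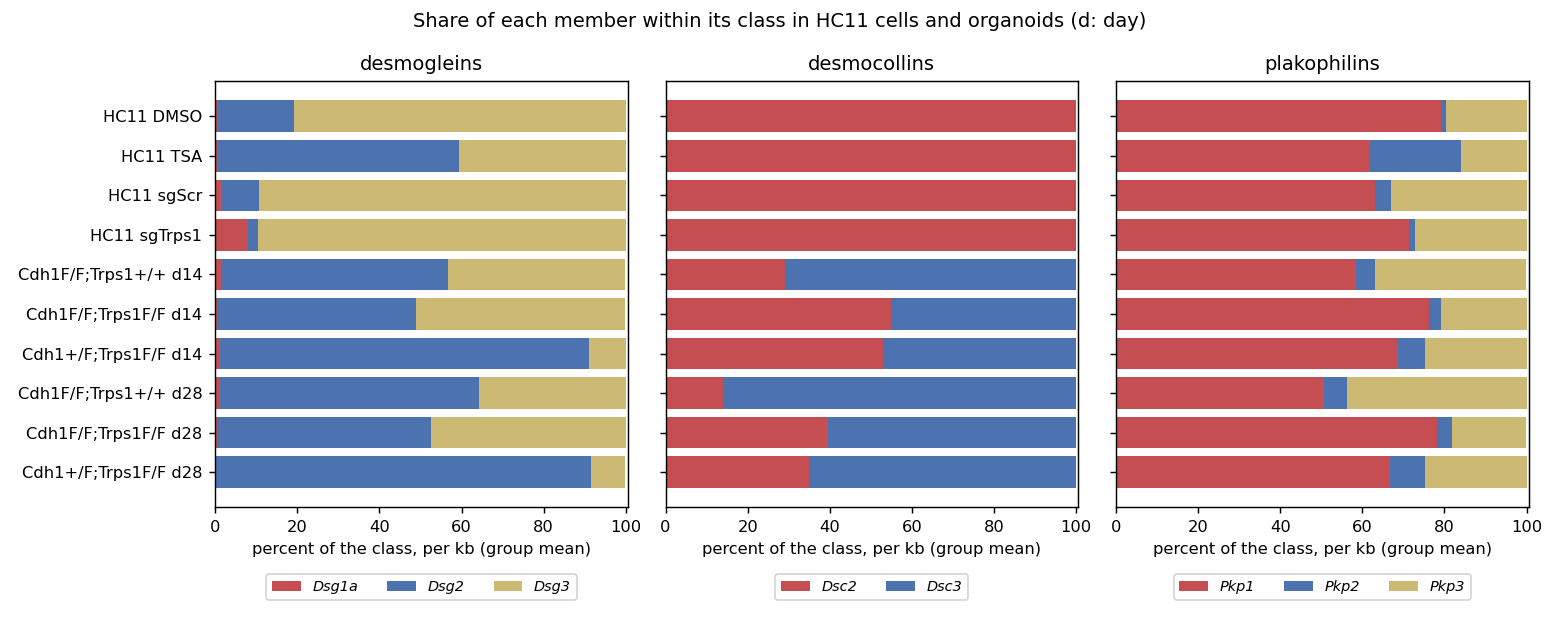
Share of each gene within the desmogleins, desmocollins and plakophilins, in percent of the class's summed normalized count per kilobase (group means), in the HC11 and organoid groups. Dsg2 takes 58.8% of the desmogleins with TSA and 18.4% with DMSO, and it takes 89.9% and 91.3% in the Cdh1+/F;Trps1F/F organoids.

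In organoids, double-floxed against Trps1+/+ differ in the Trps1 alleles on a Cdh1F/F background. At day 14, 7 of the 10 members were higher in the double-floxed organoids, Dsg1a and Dsc3 were lower and Pkp3 was not called. At day 28, 6 were higher, Pkp3 was lower and 3 were not called. Pkp1, Dsc2 and Dsg3 rose the most. Of 15873 genes, 32.5% were called at day 14 (14.5% higher, 17.9% lower) and 43.2% at day 28 (19.9% higher, 23.4% lower). The members' median difference was 0.41 and 0.57, beside -0.01 and -0.04 over all genes.

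Pkp1 was at 12.75 and 12.57 in Trps1+/+ organoids at day 14 and at 14.10 and 14.05 in double-floxed ones. At day 28 it was at 12.54 and 12.45 against 14.05 and 13.83. The 4 double-floxed libraries lay above the 4 others, by 1.41 (SE 0.0928, 2.67-fold, adjusted p = 3.15e-07) and 1.44 (2.72-fold, adjusted p = 1.91e-07). Dsc2 was at 9.96 and 9.74 against 10.75 and 10.85 at day 14, and at 8.97 and 8.66 against 10.73 and 10.64 at day 28. It rose by 0.95 (SE 0.112, adjusted p = 3.41e-05) and by 1.87 (3.65-fold, adjusted p = 1.07e-07). The difference of Dsc2 was larger at day 28 by 0.91 (SE 0.159, adjusted p = 0.003 for the interaction): its level fell with time in Trps1+/+ organoids and was at 10.64 to 10.85 in the 4 double-floxed libraries.

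Dsg3 was at 11.17 and 10.70 in Trps1+/+ and at 11.73 and 11.81 in double-floxed organoids at day 14, and at 10.73 and 10.42 against 11.96 and 11.88 at day 28. The groups did not overlap at either day, and Dsg3 rose by 0.84 (SE 0.189, adjusted p = 0.0043) and 1.35 (2.54-fold, adjusted p = 9.42e-05). The day 14 call was lost without the Trps1+/+ library b (adjusted p = 0.0564). Dsg2 was at 11.54 and 11.53 against 11.95 and 11.94 at day 14, and at 11.73 and 11.55 against 12.28 and 12.33 at day 28. Its rises were 0.41 (adjusted p = 0.00282) and 0.67 (adjusted p = 4.9e-05), with no overlap between the groups.

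Dsc3, the basal desmocollin, went the other way from Dsc2. It was at 11.30 and 11.03 in Trps1+/+ and at 10.54 and 10.56 in double-floxed organoids at day 14, a fall of 0.62 (SE 0.142, adjusted p = 0.00455) that lost its call without Trps1+/+ library a (adjusted p = 0.0605). At day 28 it was at 11.56 and 11.37 against 11.49 and 11.18, where the groups overlapped (-0.13, adjusted p = 0.476). Dsc3 therefore made up 70.6 to 71.3% of the pair Dsc2 and Dsc3 per kilobase in Trps1+/+ and 44.3 to 45.6% in double-floxed organoids at day 14, and 85.5 to 86.5% against 58.7 to 62.3% at day 28. Dsg1a was low, at 6.10 and 5.51 against 4.56 and 4.76 at day 14 and at 5.38 and 5.63 against 4.85 and 4.91 at day 28. Its day 14 fall (-1.14, SE 0.37, adjusted p = 0.0312) lost its call in 3 of the fits that left out 1 library (adjusted p = 0.0841 to 0.233), with no filter on low values and with quantile normalization (adjusted p = 0.0705 and 0.144), and its day 28 difference was not called (-0.62, adjusted p = 0.194).

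Dsp was at 14.09 and 13.95 against 14.41 and 14.22 at day 14, and at 13.94 and 13.90 against 14.49 and 14.31 at day 28. Desmoplakin RNA was thus higher without overlap, by 0.30 (SE 0.0968, adjusted p = 0.0325) and 0.48 (adjusted p = 0.00156), though at day 14 its call was lost without double-floxed library 1 (adjusted p = 0.268) or Trps1+/+ library b (adjusted p = 0.181), or with no filter on low values (adjusted p = 0.0554). Perp was at 13.39 and 13.09 against 13.63 and 13.70, and at 12.97 and 12.83 against 13.71 and 13.47. It rose by 0.43 (adjusted p = 0.0083) and 0.69 (adjusted p = 0.000228), and the day 14 call was lost without double-floxed library 2 (adjusted p = 0.066) or Trps1+/+ library b (adjusted p = 0.0922). Pkp2 was at 9.08 and 9.15 against 9.53 and 9.51 at day 14, a rise of 0.40 (adjusted p = 0.00374), and at 9.52 and 9.38 against 9.56 and 9.59 at day 28 (0.13, adjusted p = 0.258). Pkp3 was at 11.41 and 11.63 against 11.83 and 11.62 at day 14 (0.20, adjusted p = 0.268) and at 11.78 and 11.84 against 11.54 and 11.18 at day 28. It was the one plaque gene that fell there, by 0.45 (adjusted p = 0.0149), a call lost without double-floxed library 2 (adjusted p = 0.161) or Trps1+/+ library b (adjusted p = 0.0705). Its difference changed between days by -0.65 (SE 0.187, adjusted p = 0.0304), and that call was lost in 4 of the fits that left out 1 library (adjusted p = 0.074 to 0.136) and with no filter on low values (adjusted p = 0.0569).

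**Figure D3:**
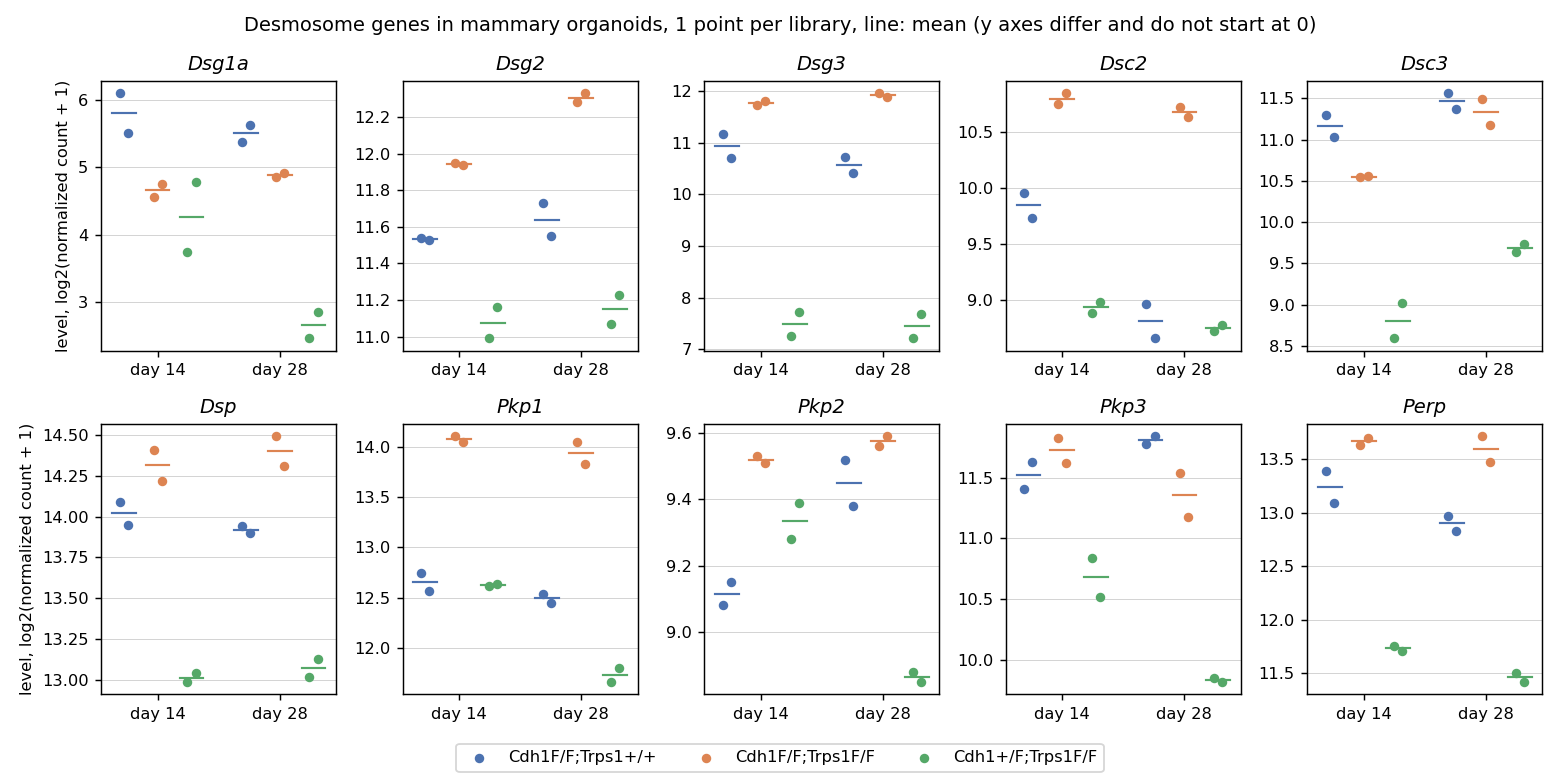
Levels of the 10 genes in organoids at day 14 and day 28, on log2(normalized count + 1) axes that differ between panels and do not start at 0, with 1 point per library and a line at each mean of 2. Dsg3 is at 7.21 to 7.73 in Cdh1+/F;Trps1F/F organoids and at 10.42 or more in the other genotypes, and the double-floxed libraries hold the highest Dsc2 and Pkp1.

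The Cdh1+/F;Trps1F/F organoids differ from the Trps1+/+ ones in both genes, Cdh1 and Trps1, and here the members were lower. At day 14, 8 of 10 fell and 2 were not called, and at day 28 9 of 10 fell and 1 was not called. None rose. Of all genes 36.3% were called at day 14, 18.9% higher and 17.4% lower, and 53.3% at day 28, 28.7% higher and 24.6% lower. The members' medians were -0.96 and -1.15, beside 0.02 and 0.03 over all genes. These comparisons use the same Trps1+/+ libraries as those above.

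Dsg3 fell the most. It was at 7.25 and 7.73 in Cdh1+/F;Trps1F/F organoids at day 14 and at 7.21 and 7.68 at day 28. These 4 libraries lay below all the others, with differences of -3.45 (10.9-fold lower, adjusted p = 3.16e-08) and -3.13 (8.74-fold, adjusted p = 3.16e-08). Dsc3, the desmocollin that shares its place in basal cells, was at 8.59 and 9.02, then 9.64 and 9.74. It fell by 2.36 (5.15-fold, adjusted p = 7.27e-08) and 1.78 (3.43-fold, adjusted p = 3.75e-07). Perp was at 11.75 and 11.71, then 11.50 and 11.42, below every library of the other genotypes, and fell by 1.51 (adjusted p = 3.02e-07) and 1.45 (adjusted p = 2.04e-07).

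The cadherins that also belong to simple epithelia fell less. Dsg2 was at 10.99 and 11.16, then 11.07 and 11.23 (-0.46, adjusted p = 0.00106, and -0.49, adjusted p = 0.000399). Dsc2 was at 8.89 and 8.99 at day 14, a fall of 0.91 (adjusted p = 3.92e-05), and at 8.73 and 8.78 at day 28, within the range of the Trps1+/+ libraries (-0.06, adjusted p = 0.673). As a result Dsg2 took 88.8 to 91.1% of the desmogleins per kilobase at day 14 and 90.5 to 92.2% at day 28, against means of 55.2% and 63.0% in Trps1+/+ organoids. Dsg1a was at 3.75 and 4.78, then 2.46 and 2.85 (-1.54, adjusted p = 0.00563, and -2.84, adjusted p = 3.18e-05). These levels of Dsg1a rest on 12 and 22 reads, then 3 and 7, so the day 28 values are near the floor. Its day 14 call was lost without Trps1+/+ library a (adjusted p = 0.0742) or Cdh1+/F;Trps1F/F library a (adjusted p = 0.0693).

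In the plaque, Dsp was at 12.99 and 13.04, then 13.02 and 13.13. It was lower by 1.01 (adjusted p = 4.44e-06) and 0.85 (adjusted p = 1.01e-05), with no overlap with any library of another genotype. Pkp3 was at 10.84 and 10.52, then 9.85 and 9.82 (-0.84, adjusted p = 0.000281, and -1.97, 3.92-fold, adjusted p = 8.23e-08). Pkp1 was at 12.62 and 12.64 at day 14, between the 2 Trps1+/+ libraries (-0.03, adjusted p = 0.827), and at 11.67 and 11.81 at day 28, where it fell by 0.75 (adjusted p = 2e-05). Pkp2 was at 9.28 and 9.39, then 8.88 and 8.85 (0.22, adjusted p = 0.0745, and -0.58, adjusted p = 0.000126).

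Against the Cdh1+/F;Trps1F/F organoids, from which they differ in the Cdh1 alleles, the double-floxed ones had 8 of 10 members higher at day 14 and 10 of 10 at day 28. Of all genes 40.6% were called at day 14, 19.0% higher and 21.6% lower, and 56.7% at day 28, 27.7% higher and 29.0% lower. Dsg3 differed by 4.28 (19.4-fold, adjusted p = 3.39e-09) and 4.47 (22.2-fold, adjusted p = 7.12e-10). Perp differed by 1.94 and 2.13, Dsc2 by 1.86 and 1.93, Dsc3 by 1.74 and 1.65, Pkp1 by 1.45 and 2.20, Dsp by 1.30 and 1.32, Pkp3 by 1.04 and 1.52, and Dsg2 by 0.87 and 1.16. At day 14 Dsg1a (0.40, adjusted p = 0.424) and Pkp2 (0.19, adjusted p = 0.116) were not called, and at day 28 they differed by 2.22 and 0.72. The day 28 value of Dsg1a rests on 3 and 7 reads in the Cdh1+/F;Trps1F/F libraries. Trps1 is floxed in both of these groups, but its level was 11.05 to 11.39 in double-floxed and 9.45 to 10.04 in Cdh1+/F;Trps1F/F organoids, without overlap (1.58 and 1.4, adjusted p = 1.51e-05 and 2.38e-05), so they were not matched for Trps1 RNA.

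**Figure D4:**
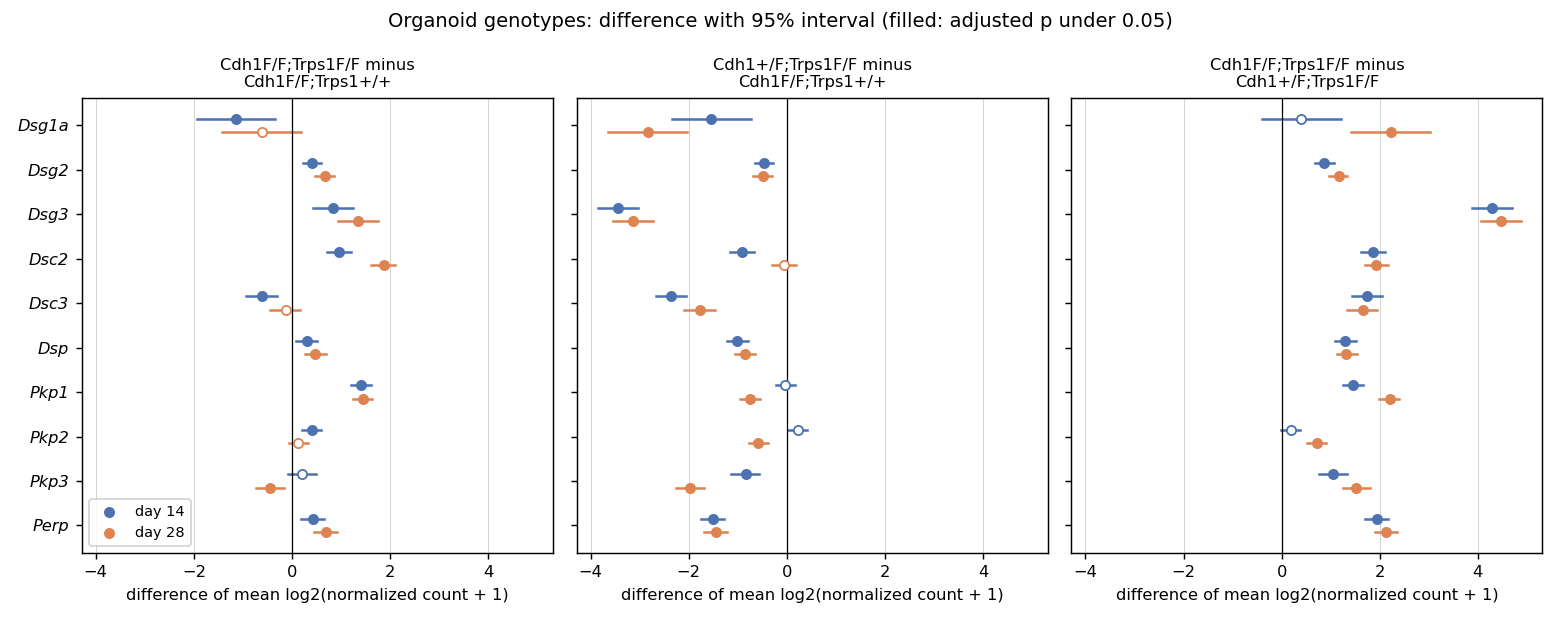
Differences of mean log2(normalized count + 1) between organoid genotypes with 95% intervals at day 14 and day 28, filled where the adjusted p is under 0.05. Dsg3 stands at -3.45 and -3.13 in the middle panel and at 4.28 and 4.47 on the right, while on the left Pkp1 is at 1.41 and 1.44 and Dsc3 at -0.62 and -0.13.

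Markers of other cell types also differed between the organoid genotypes. The summed level of 8 fibroblast markers was 89400 to 96900 normalized counts in Trps1+/+ organoids at day 14, 21200 to 21800 in double-floxed ones and 653000 to 740000 in Cdh1+/F;Trps1F/F ones. At day 28 it was 25500 to 39000, 8170 to 9310 and 356000 to 426000. Of these 8 markers, 8 were lower in double-floxed than in Trps1+/+ organoids at both days, and 7 and 8 were higher in Cdh1+/F;Trps1F/F ones. The 8 skeletal muscle markers summed to 7350 to 9750, 2530 to 2720 and 12900 to 14200 at day 14, and to 4770 to 6940, 642 to 1150 and 39000 to 49700 at day 28. None of these defining markers was at 0 in any genotype. The part of these cells in the members' differences was not tested.

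Epithelial markers moved with the members in part. The 10 epithelial markers summed to 130000 to 140000 in Trps1+/+, 184000 to 188000 in double-floxed and 103000 to 109000 in Cdh1+/F;Trps1F/F organoids at day 14, and to 128000 to 137000, 178000 to 208000 and 55700 to 58800 at day 28. The 9 basal or myoepithelial markers summed to 82600 to 83700, 104000 to 107000 and 47400 to 51200 at day 14, and to 76000 to 82400, 88300 to 121000 and 33300 to 36100 at day 28. The 8 luminal markers summed to 44300 to 55100, 73500 to 75500 and 53700 to 56100 at day 14. At day 28 they summed to 46600 to 51200, 74200 to 76500 and 27100 to 30700. Epcam, an adhesion protein of epithelial cells, is among the 10 epithelial markers. It was at 13.30 and 13.27 in Trps1+/+ and at 13.84 and 13.96 in Cdh1+/F;Trps1F/F organoids at day 14. At day 28 it was at 13.32 and 13.38 against 13.30 and 13.44. The epithelial sum was lower in Cdh1+/F;Trps1F/F than in Trps1+/+ organoids at both days. How far epithelial content shared in the members' differences was not tested. Trp63 was at 12.01 and 11.76 in Trps1+/+, at 11.56 and 11.61 in double-floxed and at 9.28 and 9.04 in Cdh1+/F;Trps1F/F organoids at day 14. It was thus low in the same organoids as Dsg3, Dsc3 and Perp. Krt5, its basal keratin companion, had means of 15.12, 15.16 and 12.89 in the same order.

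The partner genes followed the members in some cases. Jup was at 13.34 and 13.42 in Trps1+/+, at 13.85 and 13.71 in double-floxed and at 12.63 and 12.59 in Cdh1+/F;Trps1F/F organoids at day 14. At day 28 it was at 13.58 and 13.59, 13.62 and 13.39, and 12.13 and 12.07, so plakoglobin RNA was low in Cdh1+/F;Trps1F/F organoids at both days. Of 7 tested linker genes, 5 rose and none fell in double-floxed against Trps1+/+ organoids at day 14, with Ppl at 1.07, Pkp4 at 0.91 and Cdsn at 1.17, and 2 rose and 1 fell at day 28. In Cdh1+/F;Trps1F/F organoids 3 fell and none rose at day 14, and 4 fell and 1 rose at day 28, with Cdsn at -2.83, Evpl at -1.66 and Ppl at -1.33.

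Of 9 keratins, 5 rose and 2 fell in double-floxed against Trps1+/+ organoids at day 14, and 5 rose and 1 fell at day 28. Krt17, a keratin of basal and activated cells, was higher by 1.54 and 1.27 and Krt18 by 0.96 and 0.91, while Krt15 was lower by 1.18 and 1.22. In Cdh1+/F;Trps1F/F organoids 5 of the 9 fell at day 14 and 9 of 9 at day 28, and none rose. Krt5 was at -2.24 on both days and Krt17 at -2.39 and -2.09. Of 10 regulators, 6 rose and 2 fell, then 7 rose and 1 fell, in double-floxed against Trps1+/+ organoids, with Klf5 at 1.30 and 1.07 and the sheddase gene Adam10 at 0.56 and 0.91. In Cdh1+/F;Trps1F/F organoids 2 rose and 3 fell, then 1 rose and 6 fell, with Trp63 at -2.72 and -1.93.

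From day 14 to day 28 fewer members were called. In Trps1+/+ organoids Dsc2 fell by 1.03 (adjusted p = 3.13e-05), Pkp2 rose by 0.33 (adjusted p = 0.016) and Perp fell by 0.33 (adjusted p = 0.0363), beside 25.9% of all genes called (11.1% higher, 14.8% lower). The Perp and Pkp2 calls were each lost in 2 of the fits that left out 1 library (adjusted p = 0.0952 to 0.306), and that of Perp also with no filter, quantile normalization or voom (adjusted p = 0.0533 to 0.12). The other 7 members differed by -0.36 (Dsg3) to 0.30 (Dsc3). In double-floxed organoids Dsg2 rose by 0.36 (adjusted p = 0.00704), Dsc3 rose by 0.79 (adjusted p = 0.00132) and Pkp3 fell by 0.37 (adjusted p = 0.0468), beside 35.4% (14.8% higher, 20.6% lower). That call of Pkp3 was lost without double-floxed library 1 or 2 of day 14, or 2 of day 28 (adjusted p = 0.057 to 0.375), and with no filter on low values (adjusted p = 0.0806). The other 7 differed by -0.14 (Pkp1) to 0.22 (Dsg1a). In Cdh1+/F;Trps1F/F organoids Dsg1a (-1.61), Pkp1 (-0.89), Pkp3 (-0.84) and Pkp2 (-0.47) fell and Dsc3 rose by 0.88, beside 40.8% (20.5% higher, 20.2% lower). There the call of Dsg1a was lost without library b of day 14 (adjusted p = 0.053), and its day 28 level rests on 3 and 7 reads. The other 5 differed by -0.27 (Perp) to 0.08 (Dsg2). The change of the genotype difference between days was called for 2 of 10 members, Dsc2 and Pkp3, beside 17.9% of all genes (8.23% higher, 9.71% lower). The other 8 changed by -0.27 (Pkp2) to 0.52 (Dsg1a).

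Per kilobase, Perp was the highest member in each organoid group and Dsg1a the lowest. In Trps1+/+ organoids at day 14 the order was Perp, Dsp, Pkp1, Pkp3, Dsc3, Dsg2, Dsg3, Dsc2, Pkp2 and Dsg1a, with no overlap between neighbours. In double-floxed organoids of that day it was Perp, Pkp1, Dsp, Pkp3, Dsg3, Dsg2, Dsc2, Dsc3, Pkp2 and Dsg1a, so Pkp1 stood above Dsp and Dsg3 above Dsg2. At day 28 Pkp1 again stood above Dsp there, but Dsg2 above Dsg3 and Dsc3 above Dsc2. In Cdh1+/F;Trps1F/F organoids at day 14 it was Perp, Pkp1, Dsp, Pkp3, Dsg2, Pkp2, Dsc2, Dsc3, Dsg3 and Dsg1a, where Dsc2 and Dsc3 overlapped and Dsg3 stood next to last, as it did at day 28, when Dsp stood above Pkp1. In Trps1+/+ organoids the day 28 order differed in Pkp2 standing above Dsc2.

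In tumors no member was called between the genotypes. Trps1 itself was at 9.90 to 12.63 (median 10.94) over the 6 Trps1F/F mice and at 11.46, 12.94 and 12.64 in the Trps1+/+ tumors. The mice overlapped and the difference was not called (-1.26, SE 0.601, adjusted p = 0.8), so the RNA level does not separate the tumor genotypes. One tumor stood apart before any comparison: tumor 1 of mouse 18LCO025, in subgroup_one, had an epidermal marker sum of 121000 normalized counts against 29.3 to 86.5 in the other tumors. It held Dsg1a at 11.37 and Dsc3 at 10.88, whereas Dsg1a was at 0 in the other 10 tumors and Dsc3 at 3.20 or less. Its Krt10, a keratin of the upper epidermis, was at 16.07. Neither Dsg1a nor Dsc3 passed the filter in tumors, and the results that follow are given with and without that tumor where it mattered.

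Over the 6 Trps1F/F mice Dsg2 ran from 4.05 through a median of 7.89 to 12.28, and in the Trps1+/+ tumors it was at 8.67, 2.77 and 2.91. The mice overlapped, and the difference was 3.33 (SE 2.17, adjusted p = 0.8). Dsc2 ran from 6.81 through 8.30 to 10.85, against 7.87, 6.46 and 4.64. Its difference was 2.29 (SE 1.01, 95% interval 0.01 to 4.57, adjusted p = 0.8). Dsg3 ran from 0.00 through 2.89 to 9.08, against 0.92, 0.98 and 0, and its difference was 3.0 (SE 2.06, adjusted p = 0.8). Dsp ran from 5.81 through 10.65 to 13.23, against 12.30, 6.70 and 3.69 (2.38, SE 2.23, adjusted p = 0.813). Single mice moved these uncalled values, and that of Dsp was 4.75 without mouse 18LCO046 and 0.44 without 18LCO128, while that of Dsg2 was 5.28 without 18LCO046. Pkp1 (0.03), Pkp2 (0.19), Pkp3 (1.27) and Perp (-0.03) were not called either. By limma 0 of 15433 genes were called between the genotypes and 806 had an unadjusted p under 0.05, so 0 of 8 members stands beside 0% of genes, and with voom on the recovered reads no member was called either. Dsg2 and Dsg3 passed the filter through the Trps1F/F tumors alone, so their differences are no separate evidence. With both left aside it was 0 of 6 members.

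In subgroup_one, Dsg2, Dsc2, Pkp3 and Dsg3 were higher than in the Trps1+/+ tumors, of 8 tested members. In this subgroup, the 3 mice had Dsg2 at 11.50, 11.95 and 12.28, above the 3 Trps1+/+ tumors. The difference was 7.13 (SE 1.43, adjusted p = 0.0138). Dsc2 was at 9.53, 10.14 and 10.85 (3.85, SE 0.724, adjusted p = 0.011), again with no overlap. Pkp3 was at 10.46, 10.80 and 10.97 against 8.95, 6.96 and 6.38 (3.31, SE 0.722, adjusted p = 0.019). The calls of Dsg2 and Pkp3 were lost when mouse 18LCO003, 18LCO025, 18LCO114 or 18LCO128 was left out (adjusted p = 0.0503 to 0.0567 and 0.0647 to 0.0733). That left 2 members called, Dsc2 and Dsg3, and Dsg3 had to differ for the reason given below.

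Dsg3 was at 5.86, 6.90 and 9.08 in these mice and at 0.92, 0.98 and 0 in Trps1+/+ tumors (6.65, SE 0.941, adjusted p = 0.0038). It passed the filter through subgroup_one alone and so had to differ, and without the tumor rich in epidermal keratins the difference was 5.45 (adjusted p = 0.048). Without that tumor Dsg2, Dsc2 and Pkp3 were also called, at 7.08, 3.74 and 3.18. Dsp was at 12.58, 13.23 and 13.44, above the Trps1+/+ tumors at 12.30, 6.70 and 3.69, but was not called (5.52, SE 2.00, adjusted p = 0.0984). Without the Trps1+/+ mouse 18LCO046, whose Dsp was 12.30, it was called at 7.89 (adjusted p = 0.0114). Pkp1 (1.36, adjusted p = 0.569), Pkp2 (0.83, adjusted p = 0.148) and Perp (0.07, adjusted p = 0.961) were not called. With Dsg3 left aside, 3 of 7 members were higher, beside 8.91% of 15881 genes higher (6.66% lower, 15.6% in all). Since the labels do not say how the subgroups were made, a split made on these expression values is possible, and then this is a description and not a test.

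Markers moved along with subgroup_one. In its 4 tumors the epithelial marker sum was 79900 to 153000, against 10100 to 34500 in Trps1+/+ tumors, and 6 of 10 epithelial markers were called higher. Cdh1, which is floxed in every tumor, was higher by 4.46 (adjusted p = 0.0289), and Epcam was at 14.31 to 14.76 against 11.31, 4.42 and 4.64. Fibroblast markers summed to 80200 to 623000 and 392000 to 1110000, and macrophage and leukocyte markers to 17400 to 30200 and 67000 to 86100. The tumor of 18LCO046 had the highest Epcam, Dsg2 and Dsp of the 3 Trps1+/+ tumors. The part of epithelial content in the members' differences was not tested.

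In subgroup_two and subgroup_three no member was called against the Trps1+/+ tumors, with adjusted p at or above 0.626 and 0.828. The differences ran from -0.85 (Pkp3) to 1.63 (Pkp1) in subgroup_two and from -3.40 (Pkp1) to 1.27 (Dsc2) in subgroup_three. By limma 0 and 1 of all genes were called (0% and 0.00630%), and 2104 and 958 had an unadjusted p under 0.05. Dsg2 was at 4.62 and 6.79 in subgroup_two and at 3.97 and 4.05 in subgroup_three, below every tumor of subgroup_one. Pkp1 kept a high level in 10 of 11 tumors, from 10.84 to 14.43, and was at 5.29 in mouse 18LCO052. Tumors with almost no Dsg3 and little Dsg2 thus still held Pkp1. Perp likewise was at 10.21 to 13.39 in all 11 tumors and Pkp2 at 8.31 to 10.21, a narrow range beside that of Dsg2.

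**Figure D5:**
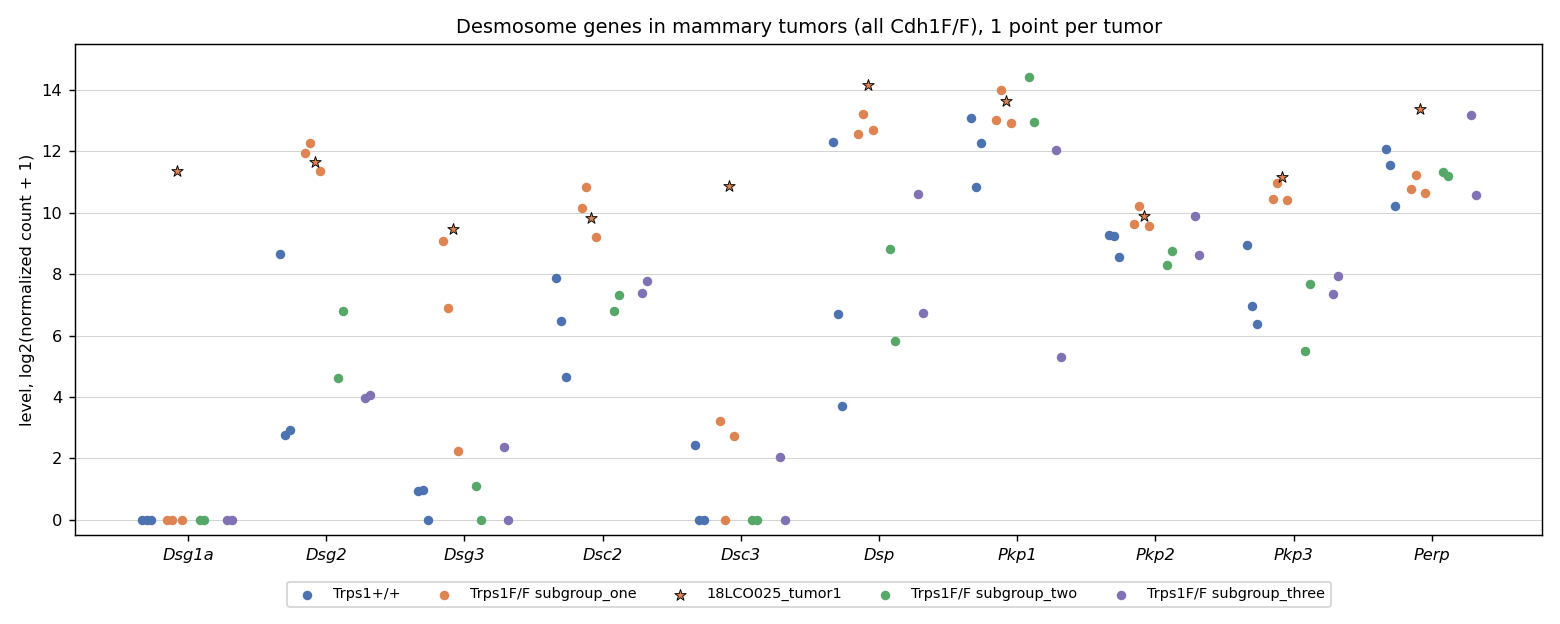
Levels of the 10 genes in tumors, on a log2(normalized count + 1) axis with 1 point per tumor, by genotype and labelled subgroup, all of them Cdh1F/F. Subgroup_one holds Dsg2 at 11.35 to 12.28 and the other tumors at 2.77 to 8.67, and a star marks tumor 1 of mouse 18LCO025, with Dsg1a at 11.37 and Dsc3 at 10.88.

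Across libraries the members most alike were Dsg3 and Dsp (Pearson r = 0.992 over the 12 organoid libraries) and Dsg3 and Perp (r = 0.988). Over those libraries, which share 6 groups and differ in the cell types above, the genes most like each member were mostly no members. Dsg3 stood with Dsp and Elovl7 (0.992 and 0.991), Perp with Elovl7 and Tcf7 (0.994 and 0.991), Dsc2 with Gyk and Ano1 (0.993 and 0.978), Pkp1 with Gabrp and Lad1 (0.987 and 0.982) and Dsc3 with Ntrk3 and Slc26a2 (0.984 and 0.982). Dsg1a, Dsg2, Pkp2 and Pkp3 stood with Igfbp3 (0.938), Myo19 (0.991), Spns2 (0.983) and Efnb1 (0.985). Dsc2 and Dsc3 thus had no nearest gene in common. Over the 11 tumors Dsg2 was most like Sowahb (0.996), Dsp like Krt14 (0.979), Pkp3 like Tulp1 (0.985) and Perp like Rhod (0.931).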

How the data were processed

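RNA-seq values of 33 samples in 4 tables were used. An AllPrep kit gave the RNA, per the labels' protocols, and libraries came from a TruSeq kit. Per the submitters' processing notes TopHat, HTSeq and GRCm38 were used; their versions: not given in the sources used here. Per the file headers the authors deposited log2 values of normalized counts. In each library 100% of them were a whole number of reads times 1 factor, within 0.01 reads or a share of 1e-05, plus 1 before log2. No molecular identifiers are mentioned, so floors cover counting error only: 3 counts equal 1.55 to 4.51 normalized counts. The guide and organoid tables each had 1 row without a symbol (5.16e-06% and 1.31e-05% of reads), which was left out.

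Tests used limma 3.58.1 under R 4.3.3 (eBayes with a trend) on the log2 values as deposited, over all genes whose normalized count plus 1 was at least 10 in as many libraries as the smallest group has, with Benjamini-Hochberg adjustment. Organoids were fitted as 6 groups in 1 model. Of the 12 organoid columns, 8 share a header with another, so those replicates are called a and b. Tumors were averaged per mouse, and within a subgroup per mouse. Mouse 18LCO025 gave tumors 1 and 2 to subgroup_one and tumor 3 to subgroup_three. It therefore entered the subgroup fit in both, as if these were separate mice. Levels per kilobase used exon lengths of GENCODE M21. The code was tested on simulated data.

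Every member is covered in every comparison, by its own value or within a range over the members not called. From the lists, counts and at most 4 genes with the smallest p are given. Of the 2 genes with the highest Pearson r per member, both or only the first are given over organoids. Over tumors the first is given, for Dsg2, Dsp, Pkp3 and Perp only. Genes named beyond these rules, among them Epcam, Krt10 and Dsc1, were chosen after their values were seen. The members, the lists and the alternatives were chosen with earlier results of these data known. Further marker lists were read and are not described. The alternatives were no filter, 5 added before log2, quantile normalization, voom on the recovered reads, a replicate or mouse block, and leaving out each library or mouse. A crossed block, a block on the numbered organoid libraries and leaving out the tumor rich in epidermal keratins were added after seeing the data.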

Additional observations from a re-analysis of the deposited data

Results flagged for a closer look

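Dsg1a was flagged in the Trps1F/F tumors because mouse 18LCO025, at 3.79 as the mean of its 3 tumors, stood apart from 5 mice at 0, so that its gap made up the whole range (share 1.0). The level came from tumor 1 of that mouse. Pkp1 was flagged because mouse 18LCO052, at 5.29, lay far below the next mouse at 12.87, a gap of 0.829 of the range. Chance flags about 1 in 20 such groups, and 10 were looked at. That rate does not cover Dsg1a, where 5 mice tied at 0 make any single mouse above 0 fill the whole range.

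The genotype difference of double-floxed against Trps1+/+ organoids changed between days for Dsc2, by 0.91 (adjusted p = 0.003, limma), and for Pkp3, by -0.65 (adjusted p = 0.0304, limma).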

How the results depend on the processing

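Of 1411 values of members under an alternative, 1303 kept their direction and their side of the threshold. Those that changed sign, 60 in all, were called neither before nor after. The number of members called between days in the genotype difference was 1 with no filter on low values and 2 as reported. Leaving out 1 library or mouse gave 1 to 3 members called over time in Trps1+/+ organoids, 1 to 2 for the difference between days and 2 to 5 in subgroup_one. The counts for subgroup_one include Dsg3, which passed the filter through that subgroup alone.

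Apart from leaving out libraries, other settings took a call from 8 values and gave one to 5. In double-floxed against Trps1+/+ organoids at day 14, Dsg1a was lost with no filter (adjusted p = 0.0705) and with quantile normalization (-0.73, adjusted p = 0.144), and Dsp with no filter (adjusted p = 0.0554). No filter also took the calls of Pkp3 over time in double-floxed organoids (adjusted p = 0.0806) and for the difference between days (adjusted p = 0.0569). Perp over time in Trps1+/+ organoids was lost with no filter (adjusted p = 0.064), quantile normalization (0.12) and voom (0.0533). Calls were gained by Dsg1a with quantile normalization (1.05, adjusted p = 0.0323) and Pkp2 with voom (0.24, adjusted p = 0.0378) in double-floxed against Cdh1+/F;Trps1F/F organoids at day 14, by Dsc3 over time in Trps1+/+ organoids with voom (0.35, adjusted p = 0.0477), and by Perp over time in Cdh1+/F;Trps1F/F organoids with quantile normalization (-0.32, adjusted p = 0.025) and voom (-0.29, adjusted p = 0.0441). The signs changed for Dsg3 over time in Cdh1+/F;Trps1F/F organoids with voom (0.00), Dsg3 in subgroup_two (0.71) and Dsp over time in Trps1+/+ organoids (0.08) with quantile normalization, Perp between tumor genotypes with the mouse as a block (0.21) and with voom (0.10), Perp in subgroup_one (-0.39) and Pkp1 between tumor genotypes (-0.04) without the tumor rich in epidermal keratins, and the change between days of Pkp1 with quantile normalization (-0.02) and voom (-0.03). The cause was not tested.

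Scaling moved the split of all genes. With quantile normalization 3903 genes were higher and 2861 lower in double-floxed against Cdh1+/F;Trps1F/F organoids at day 14 (3017 and 3426 as reported), and 5959 and 3689 at day 28 (4397 and 4606), where the median of all genes moved by 0.14. For Cdh1+/F;Trps1F/F against Trps1+/+ at day 28 it was 3741 and 5200, and 3869 and 5215 with voom (4550 and 3912), each with a shift of -0.12. In subgroup_one voom gave 1768 and 666 (1415 and 1057), with a shift of 0.15.

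Leaving out 1 library or mouse moved these uncalled differences across 0. In organoids they ran, lowest to highest: Dsc2 -0.22 to 0.09 between Cdh1+/F;Trps1F/F and Trps1+/+ organoids at day 28, Pkp1 -0.12 to 0.06 between the same genotypes at day 14, Dsc3 -0.29 to 0.02 between double-floxed and Trps1+/+ organoids at day 28, Dsg1a -0.12 to 0.91 between double-floxed and Cdh1+/F;Trps1F/F organoids at day 14, Dsg2 -0.01 to 0.16 and Dsg3 -0.28 to 0.20 over time in Cdh1+/F;Trps1F/F organoids, Dsp -0.01 to 0.18 and Perp -0.20 to 0.05 over time in double-floxed organoids, Pkp1 -0.08 to 0.14 for the difference between days. In tumors they ran: Perp -0.57 to 0.37, Pkp1 -0.58 to 1.39 and Pkp2 -0.04 to 0.37 between tumor genotypes, Perp -0.47 to 0.46 in subgroup_one, Dsc2 -0.11 to 1.51, Dsg2 -0.16 to 2.87, Dsg3 -0.63 to 0.46, Dsp -2.19 to 2.11, Perp -0.56 to 0.38 and Pkp3 -1.94 to 0.25 in subgroup_two, Dsg2 -1.78 to 1.17, Dsg3 -0.63 to 1.75, Dsp -0.84 to 3.47, Perp -0.71 to 1.90, Pkp2 -0.41 to 0.86 and Pkp3 -0.30 to 0.99 in subgroup_three.

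Replicate numbers showed no pairing of the TSA and DMSO libraries, where same-numbered ones had correlations of -0.084, -0.003 and -0.063. Same-numbered guide libraries were at -0.194 and crossed ones at 0.194. With 2 libraries per arm these are equal in size by construction, so they do not decide how the guide libraries were paired. With the replicate number as a block, 9 members were called with TSA and 9 with the guide, and 9 with the guide numbers crossed. Over all genes the block called 10986 with TSA and 8260 with the guide, and 8827 with crossed numbers. Without a block 11110 were called with TSA and 8424 with the guide. With the mouse as a block over tumors, 0 members were called between genotypes and 4 in subgroup_one. Double-floxed organoids have numbers at both days, with a correlation of -0.06 between same-numbered libraries, and a replicate block on these 4 libraries, chosen after seeing the data, called 3 members over time, as without it (5589 genes in all, 5621 as reported). No paired analysis was possible for the other organoid comparisons because 8 of the 12 columns carry no replicate number. Dsc3 was too low to test in HC11 cells, with 0 to 7 reads a library, and so was Dsg1a in tumors, with 0 reads in 10 of the 11.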
